A study of Homo sapiens with 54 samples.

Results

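RNA polymerase III occupancy was compared between T47D cells given vehicle and T47D cells given R5020 by chromatin immunoprecipitation and sequencing (ChIP-seq) of POLR3A. T47D is a human luminal breast cancer line that expresses estrogen and progesterone receptors, and R5020 is a synthetic progestin. Cells received ethanol, the vehicle, or R5020 for 1 h, and each treatment was represented by 3 POLR3A libraries. The authors deposited 1 peak list per treatment, which leaves no replicate error to give and no test between treatments. All regions of both lists on chromosomes 1 to 22 and X were used, 688 of 727 with vehicle and 1019 of 1246 with R5020, out of 518471 regions in the 16 lists of the series. A region was called shared when a region of the other treatment overlapped it by at least 1 bp. Each region was assigned to the first class with a member within 200 bp, in the order RNA polymerase III genes, their pseudogenes and RNA polymerase II snRNA genes. Otherwise it went to protein-coding gene ends within 1 kb, then to the inside of such genes, then to other places. The nearest gene was noted separately. In the H3K27Ac lists, a mark of active promoters, all 8 luminal marker genes had an acetylated region at a gene end, including ESR1, PGR, GATA3 and FOXA1. Of the basal markers 1 of 3 (TP63) had one, while KRT5 and KRT14 had none. Fibroblast markers had one at 3 of 3 and leukocyte markers at 2 of 3, so acetylation did not separate these types from luminal cells. The H3K27Ac lists hold 88869 regions with vehicle and 112542 with R5020, and a region of either was taken. The share of all genes with one at an end was not counted, so these marker counts do not identify a cell type.

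RNA polymerase III transcribes short untranslated RNAs, and POLR3A is the largest subunit of its catalytic core. At tRNA genes the factor TFIIIC binds an A box and a B box inside the gene and places TFIIIB, with its subunit Brf1, ahead of the start. The 5S rRNA genes also have internal promoters and need TFIIIA in addition. Genes such as RNU6-1, RN7SK, RMRP, RPPH1 and the Y RNA genes instead carry promoters ahead of the gene, with a TATA box, and use the relative Brf2. Transcription ends at a short run of T on the coding strand.

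Sequences were read from the RefSeq promoter table of GRCh38.p14, which holds 300 bases around the starts of other genes and in places contains a tRNA gene. A whole tRNA gene lay in the 250 bases before a start in 14 cases, and POLR3A was present at all 14 with vehicle and with R5020. The gene strand was taken as the strand with a B box match. The 4 genes below are shown because they form 2 pairs with identical gene sequences of 72 bases and different POLR3A folds. Capitals mark the B box match and the first run of at least 4 T after the gene.
TRH-GTG1-3: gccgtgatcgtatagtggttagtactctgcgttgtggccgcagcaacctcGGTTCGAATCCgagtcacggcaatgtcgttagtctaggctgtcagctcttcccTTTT
TRH-GTG1-9: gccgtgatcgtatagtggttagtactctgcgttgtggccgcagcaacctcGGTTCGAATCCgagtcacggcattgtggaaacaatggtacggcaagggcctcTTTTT
TRP-TGG3-2: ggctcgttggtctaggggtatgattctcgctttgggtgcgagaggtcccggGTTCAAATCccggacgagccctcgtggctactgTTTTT
TRP-TGG3-5: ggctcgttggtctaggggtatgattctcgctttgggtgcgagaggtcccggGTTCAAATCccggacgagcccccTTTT
They were read from chr1:148281365-148281471, chr15:45201151-45201257, chr14:20684016-20684104 and chr16:3188094-3188171, all on the plus strand. TRH-GTG1-3, a histidine tRNA gene, had a fold of 4.15 with vehicle and 5.64 with R5020. Its copy TRH-GTG1-9 had 36.6 with vehicle and 69.6 with R5020. The proline gene TRP-TGG3-2 had 57.2 and 69.0, and its copy TRP-TGG3-5 had 9.26 and 10.3. A fold here is the authors' own value for a region, signal at its summit over the peak caller's background, and the folds of the 2 lists are set side by side without a comparison of size.

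The core of a B box, GGTTCGA followed by any 2 bases and CC and searched on both strands like every motif here, was found in 65 of 34789 promoter windows of 300 bases (0.187%). Among the windows that a POLR3A region overlapped, 12 of 68 with vehicle (17.6%, 95% interval 10.4 to 28.4) and 12 of 63 with R5020 (19.0%, 11.2 to 30.4) held it. Of 29 windows that contain a tRNA gene or a piece of one, 13 held it. None of the 42 vehicle windows and none of the 36 R5020 windows that had POLR3A but no tRNA gene held it. A shorter form that overlaps it, GTTCNANNC, was in 22 of 68 vehicle windows and in 7.47% of all windows. A loose consensus of the progesterone response element was in 0 of 68 vehicle and 0 of 63 R5020 windows, against 0.391% of all windows. The 95% intervals of these counts reach 5.35% and 5.75%, so so few windows cannot show a share below that of all windows. The A box core, TGGC, any 2 bases, AG, any base and GG, was in 7 of 68 vehicle windows and in 2.29% of all windows. It was in 5 of the 42 vehicle windows without a tRNA gene and in 2 of the 29 windows with one. TATAAA, the letters of a TATA box, was in 8 of 68 vehicle windows (11.8%) and in 11.6% of all windows.

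The tRNA gene with the 10-base T run of the set is shown for comparison with the 2 genes that follow it, where the promoter lies ahead of the gene. In the tRNA gene capitals mark the B box match and the T run. In the upstream sequence of RMRP, the RNA of RNase MRP, they mark TATAAA, and RPPH1, the RNA of RNase P, had no such match in its 100 bases. Only these exact letters were searched, and the RPPH1 stretch holds the similar TATAAG, which was not counted.
TRL-AAG2-2: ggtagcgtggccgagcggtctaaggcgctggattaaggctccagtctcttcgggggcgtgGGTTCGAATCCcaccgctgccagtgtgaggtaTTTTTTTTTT
RMRP: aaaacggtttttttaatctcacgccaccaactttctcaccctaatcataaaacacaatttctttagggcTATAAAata
RPPH1: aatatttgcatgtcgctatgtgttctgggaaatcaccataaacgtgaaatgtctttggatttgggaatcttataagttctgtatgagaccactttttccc
These are chr6:28943602-28943703, chr9:35658042-35658119 and chr14:20343412-20343511, all read on the minus strand. The gene table gives no strand: that of TRL-AAG2-2 was taken from its B box match and that of RMRP and RPPH1 from general knowledge of these genes, on which the TATAAA position depends. The RMRP stretch ends 22 bases before the gene, so its TATAAA begins 31 bases ahead of it, and the RPPH1 stretch ends at the gene. TRL-AAG2-2 had folds of 56.5 with vehicle and 48.9 with R5020. RMRP had 56.3 and 63.2, and RPPH1 had 24.5 and 19.5. All 3 genes had POLR3A with vehicle and with R5020.

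By class of gene, both lists held nearly the same regions at RNA polymerase III genes and differed most at other places. At tRNA genes there were 304 vehicle and 304 R5020 regions, and 297 of each were shared (97.7%, 95.3 to 98.9). The 17 regions at 5S rRNA genes and the 13 at genes with upstream promoters were all shared in both directions. At 7SL, BC200, vault and SNAR genes, 23 of 25 vehicle and 23 of 23 R5020 regions were shared. Over the whole lists, 16.7% of vehicle regions and 43.7% of R5020 regions had no partner. The regions with no listed RNA polymerase III gene, pseudogene, snRNA gene or protein-coding gene nearby numbered 201 with vehicle and 509 with R5020, of which 126 in each list were shared. RNA polymerase III genes therefore took 359 of 688 vehicle regions (52.2%) and 357 of 1019 R5020 regions (35.0%), a difference of -17.1 percentage points (-21.8 to -12.4). Among regions with a fold of at least 5 that difference was 0.13 percentage points (-5.61 to 5.86). All intervals are 95% Wilson or Newcombe intervals and cover counting error of regions only, and neighbouring regions are not independent.

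**Figure D1:**
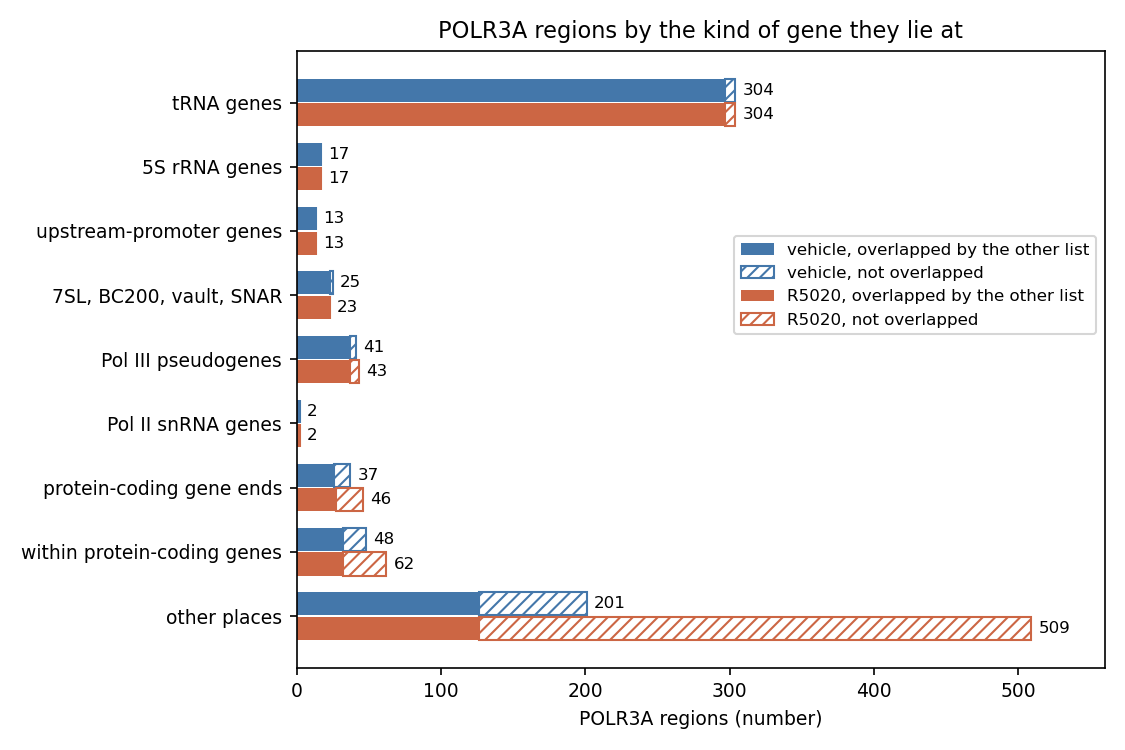
POLR3A regions (number, horizontal axis) by the kind of gene they lie at, for the vehicle and R5020 lists, with solid bars for regions overlapped by the other list and hatched bars for the rest. The distance is 200 bp for RNA polymerase III genes, their pseudogenes and snRNA genes, and 1 kb for protein-coding gene ends. The bars of tRNA genes are equal at 304, and the bars of other places are 201 with vehicle and 509 with R5020.

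The deposited folds put the 4 classes of RNA polymerase III gene in the same order within each list. The median fold at the 13 upstream-promoter genes was 49.8 with vehicle and 63.2 with R5020. At tRNA genes it was 36.6 and 44.9, at the 7SL, BC200, vault and SNAR group 25.0 and 34.1, and at 5S genes 8.74 and 12.8. Regions of other places had medians of 4.45 and 2.40. All 116 vehicle regions with a fold from 20 to 40 and all 155 above 40 were shared, and so were all 190 R5020 regions above 40. Of the 196 R5020 regions with a fold below 2, 5 were shared (2.55%, 1.09 to 5.83). Of the vehicle regions, 12 of 19 below 2, 12 of 31 from 2 to 3 and 58 of 126 from 3 to 5 were shared. RNA polymerase III genes made up 96.1% of vehicle regions and 95.3% of R5020 regions above 40, and 0 of the R5020 regions below 2. The highest fold of each list was shared by several regions, 14 at 58.0 with vehicle and 20 at 71.4 with R5020.

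Vehicle and R5020 regions formed 563 one-to-one pairs. Pairs were made from regions that overlap each other, so their common place, and part of the closeness of their summits, follows from that rule. The median distance between the summits of a pair was 12 bp, and 494 pairs (87.7%) had summits within 50 bp. The R5020 region was the narrower one in 491 pairs (87.2%), with median widths of 454 bp for vehicle and 389 bp for R5020. Spearman's rho of the folds was 0.933 across the 563 pairs, a description across regions that share their 2 sets of libraries. The summit lay inside the gene at 250 of 258 tRNA genes that were the only RNA polymerase III gene of their vehicle region (96.9%), at 13 of 13 upstream-promoter genes and at 16 of 17 5S genes.

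Of the 422 nuclear tRNA genes with a numbered symbol, 360 had a POLR3A region within 200 bp with vehicle (85.3%) and 359 with R5020 (85.1%), and 352 had one in both. Over all 59094 genes of the table, 1.24% had one with vehicle and 1.31% with R5020. In 45 vehicle regions there was more than 1 tRNA gene, so neighbours share a value; the widest group was TRL-TAA3-1, TRR-TCT3-2, TRV-TAC1-1 and TRV-TAC2-1 under a single region. The genes stood for 22 amino acid groups and 49 anticodons, and 47 anticodons had at least 1 occupied gene in each treatment. The 2 without any were Ile-GAT, with 0 of 3 genes, and Tyr-ATA, with 0 of 1. All genes were occupied in both treatments for 21 anticodons. Proline (20 genes), threonine (20 genes) and the initiator methionine tRNA that starts every protein (8 genes) were occupied in full in both treatments.

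With vehicle the lowest shares were those of selenocysteine (1 of 2 genes in each treatment), isoleucine, glutamine, tyrosine and cysteine. Isoleucine had 15 of 22 genes with vehicle and 13 of 22 with R5020, and cysteine, the group with the most genes lacking POLR3A in both treatments (8), 21 of 29 and 18 of 29. Glutamine had 13 of 19 and 14 of 19, and tyrosine 9 of 13 and 10 of 13. With R5020 phenylalanine (8 of 11) and asparagine (16 of 21) were also below tyrosine. The selenocysteine gene TRU-TCA1-1, which by background knowledge has a TATA box ahead of the gene unlike other tRNA genes, had 45.0 and 66.1 and a Brf1 region in both treatments, and TRU-TCA2-1 had no region. No amino acid group differed between treatments by more than 3 genes. The initiator methionine genes had folds from 27.7 to 56.8 with vehicle (median 42.3) and from 36.4 to 70.8 with R5020 (median 58.6). The elongator methionine genes had medians of 25.7 and 53.7, alanine genes 45.9 and 45.8, and cysteine genes 15.4 and 16.4. Across the 352 genes, which stand on 296 distinct regions, Spearman's rho of the folds was 0.775.

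**Figure D2:**
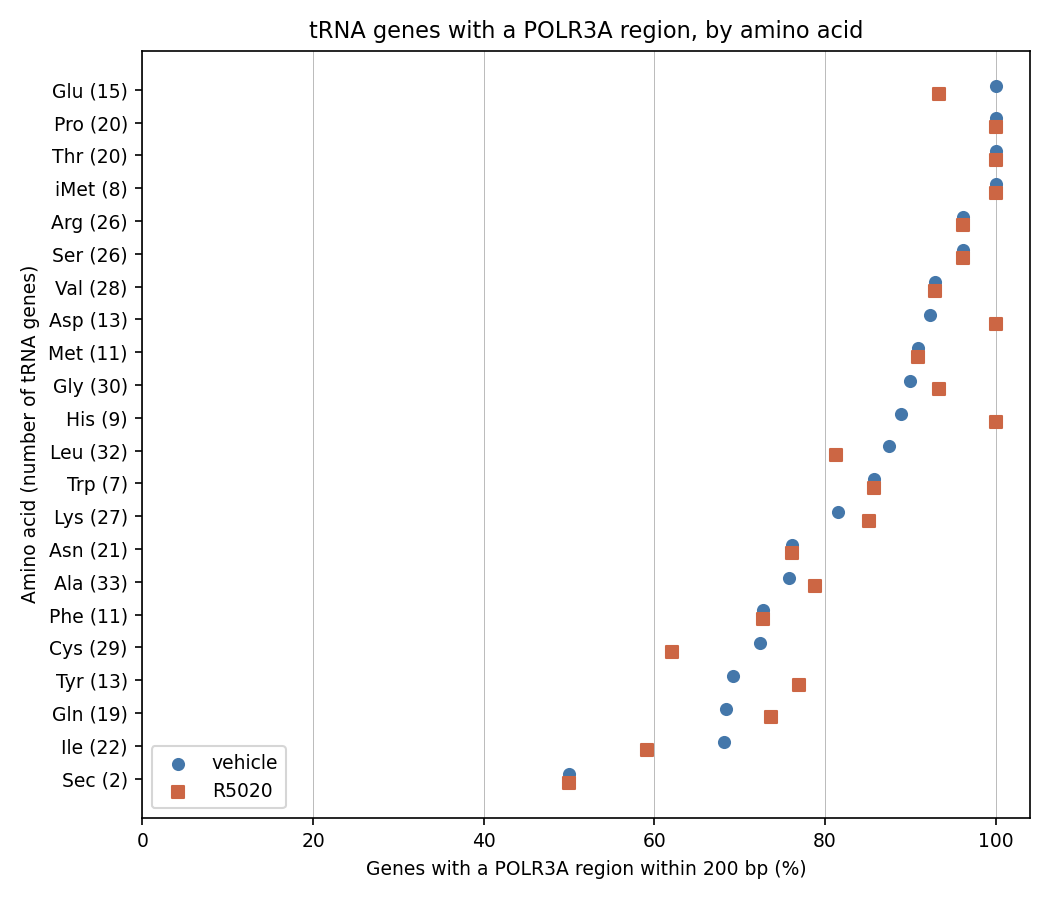
Share of tRNA genes with a POLR3A region within 200 bp (%, horizontal axis) for each amino acid, with the number of genes in parentheses, in the vehicle and R5020 lists. Proline, threonine and initiator methionine sit at 100 in both, and cysteine has 21 of 29 genes with vehicle and 18 with R5020.

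Copies of the same mature tRNA often carried different POLR3A folds. By the naming of tRNA genes, symbols that differ in the last number alone give the same mature tRNA. Of 57 such groups with at least 2 genes (222 genes), 44 had every gene occupied with vehicle, 7 had none and 6 were mixed; with R5020 the counts were 47, 5 and 5. Within the vehicle list the highest fold of a group was a median of 2.30 times its lowest, over 50 groups, and more than 5 times its lowest in 16 groups. In the R5020 list the median was 2.51 times, and 16 groups passed 5 times. The largest vehicle range was that of TRD-GTC2, an aspartate tRNA with 11 genes. It ran from 2.22 at TRD-GTC2-2 to 56.4 at TRD-GTC2-9, and in the R5020 list from 3.61 at TRD-GTC2-4 to 65.9 at TRD-GTC2-11. TRL-CAG1, a leucine tRNA with 7 genes, had a median of 3.45 with vehicle and 5.82 with R5020, while TRL-CAG1-7 had 46.8 and 70.6. The initiator tRNA TRX-CAT1, with 8 genes, spread less, from 27.7 to 56.8 with vehicle. The low copies TRD-GTC2-2, TRD-GTC2-4 and TRL-CAG1-1 to TRL-CAG1-5 lay in the tandem array of chromosome 1 between 161 and 162 Mb. There 29 of 32 genes were occupied with vehicle, with a median fold of 7.52, and 31 with R5020, with a median of 7.72. On chromosome 6 between 25 and 29 Mb, 124 of 139 genes were occupied with vehicle, with a median of 40.1. Reads from near-identical copies may be split or dropped by the authors' alignment, whose handling of them is not given in the sources used here, and the part of this in the low folds was not tested.

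**Figure D3:**
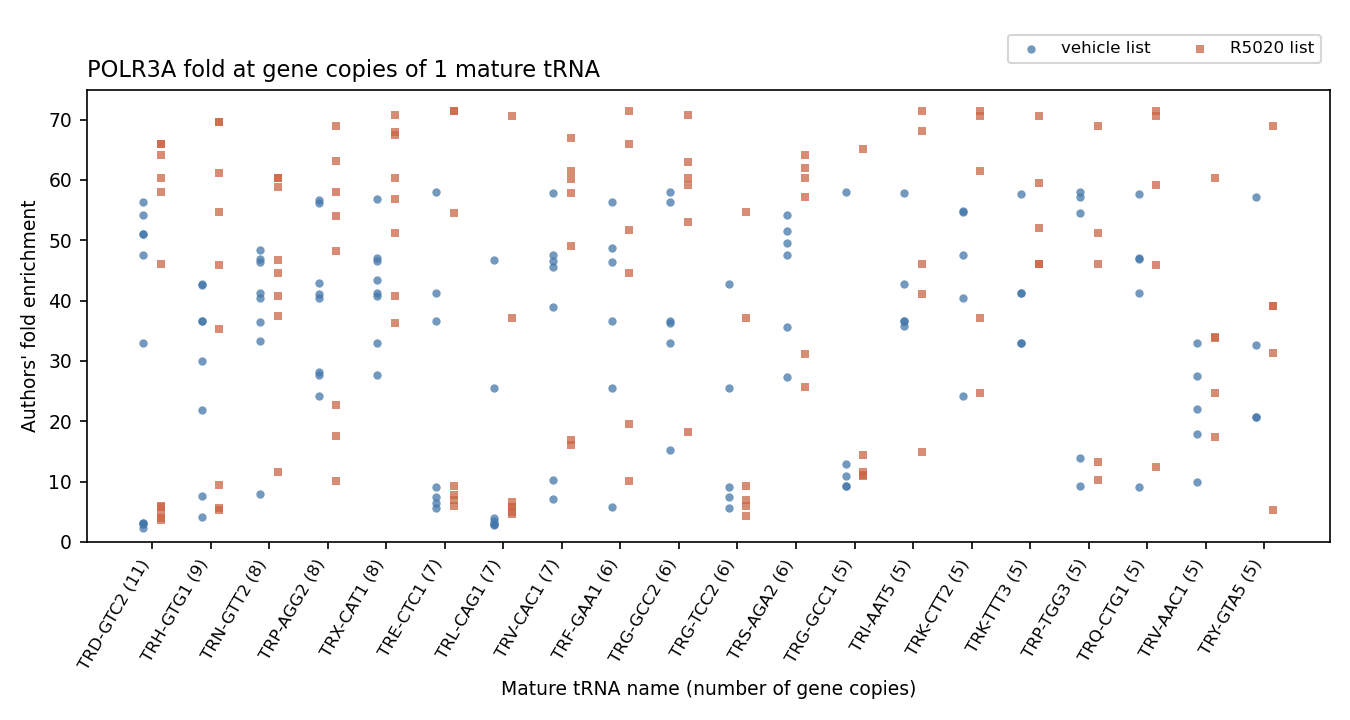
Authors' fold enrichment (vertical axis) at each occupied gene copy of the 20 mature tRNAs with at least 5 copies, circles for the vehicle list and squares for the R5020 list. TRD-GTC2 runs from 2.22 to 56.4 in the vehicle list and from 3.61 to 65.9 in the R5020 list, and TRX-CAT1 from 27.7 to 56.8 in the vehicle list.

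A POLR3A region in 1 treatment alone was found at 15 tRNA genes, with folds from 3.05 to 10.2. With 352 genes in both and 15 in 1, this is to be read beside the 19.2% of all 832 genes with POLR3A in either treatment that had it in 1 alone. The 8 genes with vehicle alone were TRL-AAG1-1 (fold 10.2), TRI-AAT3-1 (8.71), TRC-GCA10-1 (5.19), TRC-GCA22-1 (4.96), TRC-GCA23-1 (4.87), TRI-TAT2-3 (4.73), TRL-CAA3-1 (4.69) and TRE-TTC3-1 (3.05). The region of TRL-AAG1-1, chr5:181096973-181097632, is itself a shared one: an R5020 region at chr5:181096988-181097242 overlaps it, at TRV-CAC1-2, but ends more than 200 bp from TRL-AAG1-1. The regions of the other 7 had no partner. Thus 3 of the 8 were cysteine genes of chromosome 7, whose regions lie at chr7:149377446-149377613, chr7:149556675-149556830 and chr7:149595166-149595342. The 7 with R5020 alone were TRK-CTT6-1 (5.53), TRH-GTG1-2 (5.31), TRY-GTA5-3 (5.27), TRQ-CTG4-2 (4.90), TRA-AGC12-3 (4.48), TRG-TCC2-2 (4.31) and TRD-GTC2-5 (3.87). Of these, TRG-TCC2-2 and TRD-GTC2-5 belong to the array of chromosome 1. A leucine gene shows how a boundary can move a value: TRL-CAA6-1 had a fold of 5.74 with vehicle and 60.3 with R5020. The vehicle list holds a separate region 224 bp from the gene with a fold of 33.0, at chr1:161612253-161613130. The single R5020 region, chr1:161611867-161613051, overlaps both vehicle regions.

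The tRNA genes with a vehicle region were split into 4 groups of 90 by their vehicle POLR3A fold, and the other antibodies' lists were read at them. Folds ran from 2.22 to 20.6 in the lowest group and from 49.5 to 58.0 in the highest. Brf1, the TFIIIB subunit, was present with vehicle at 33, 87, 90 and 90 genes from the lowest group to the highest. The polymerase subunit POLR3G was present at 6, 53, 71 and 85, and H3K27Ac at 3, 52, 56 and 59. After R5020 the progesterone receptor (PR) was present at 2, 37, 31 and 37 genes, and Maf1, a repressor of RNA polymerase III, at 0, 25, 35 and 34. The lowest group stood apart from the other 3 for every one of these lists. Among the upper 3 the PR counts lay between 31 and 37 and the H3K27Ac counts between 52 and 59. POLR3A was still present with R5020 at 82 of the lowest 90 genes and at 90 of 90 in each of the others. None of the 55 tRNA genes without POLR3A in either treatment had Brf1, PR or Maf1 in either treatment, and 3 had H3K27Ac with vehicle.

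**Figure D4:**
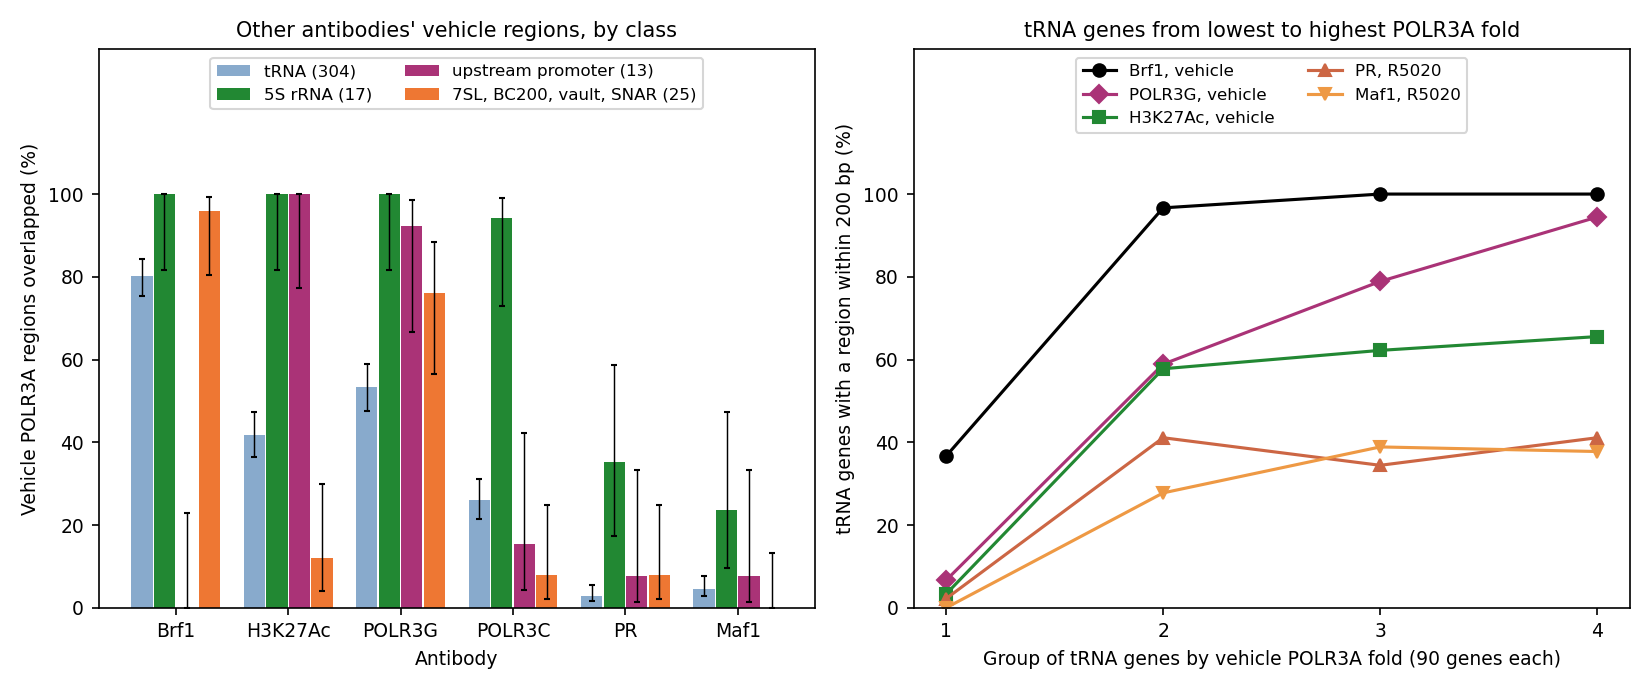
Left, share of vehicle POLR3A regions (%) overlapped by a vehicle region of each antibody, in bars by class with 95% Wilson intervals; right, share of tRNA genes (%) with a region of 5 lists in 4 groups of vehicle POLR3A fold. Brf1 is at 80.3% of tRNA regions and at 0 of 13 upstream-promoter regions, and every line is lowest in the lowest group.

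The classes of RNA polymerase III gene differed in the proteins found with POLR3A, and Brf1 drew the sharpest line. With vehicle, Brf1 overlapped 244 of 304 tRNA regions (80.3%), 17 of 17 5S regions and 24 of 25 regions of the 7SL, BC200, vault and SNAR group. It overlapped 0 of 13 upstream-promoter regions, which is -80.3 percentage points from the tRNA share (-84.3 to -56.9). With R5020 it overlapped 1 of 13, at RNU6-1, and 254 of 304 tRNA regions. H3K27Ac overlapped 13 of 13 upstream-promoter regions and 17 of 17 5S regions with vehicle, against 127 of 304 tRNA regions (41.8%). POLR3C overlapped 16 of 17 5S regions against 79 of 304 tRNA regions (26.0%). POLR3G overlapped 12 of 13 upstream-promoter, 17 of 17 5S and 162 of 304 tRNA regions (53.3%), and POLR3GL overlapped none of the 688 vehicle regions. PR with R5020 overlapped 9 of 13 upstream-promoter regions (69.2%) against 94 of 304 tRNA regions (30.9%), a difference of 38.3 points (10.9 to 57.1). With vehicle these PR counts were 1 of 13 and 9 of 304. The lists differ widely in length, 370 Brf1 and 88869 H3K27Ac regions with vehicle and 6662 and 173115 PR regions in the 2 treatments, and the part of this in the shares was not tested.

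Every 5S rRNA gene of the array, RNA5S1 to RNA5S17, had its own region in both treatments. Their folds ran from 6.75 to 10.9 with vehicle (median 8.74) and from 9.84 to 16.3 with R5020 (median 12.8), a narrow band below that of most tRNA genes. RNA5S6 was lowest with vehicle and RNA5S16 highest in both lists. PR overlapped 6 of 17 regions with vehicle and 1 of 17 with R5020, while Maf1 overlapped 4 and 13. Over the whole lists PR overlapped 10.9% of vehicle and 18.4% of R5020 regions, and Maf1 7.41% and 24.5%. The 17 copies are near-identical repeats, so reads can be shared among them.

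The 13 genes with upstream promoters were all occupied in both treatments. Their folds lay above the upper quartile of the list (36.7 with vehicle and 24.6 with R5020) except at RPPH1 and RNU6-7 in both lists and at RNU6ATAC with vehicle. The 4 Y RNA genes, whose RNAs bind the Ro60 protein, lie together on chromosome 7. RNY1 had folds of 57.6 with vehicle and 71.1 with R5020, RNY3 57.2 and 69.3, RNY4 57.4 and 70.1, and RNY5 46.8 and 70.6. RN7SK, the RNA that holds P-TEFb inactive, had 49.8 and 60.3 at chr6:52995253-52996206. Among the U6 spliceosomal RNA genes RNU6-9 had 57.2 and 68.0, and RNU6-2 54.5 and 68.5. RNU6-1 had 39.7 and 40.2, RNU6-8 37.6 and 36.2, and RNU6-7 26.8 and 19.8. The minor spliceosomal gene RNU6ATAC had 32.5 and 45.5. RPPH1 and RNU6-7 were the 2 lowest of the 13 in both lists, and RNY1 was the highest in both. PR with R5020 was within 200 bp of RNY1, RNY3, RN7SK, RMRP, RPPH1, RNU6-1, RNU6-2, RNU6-7, RNU6-8 and RNU6-9, and of RNU6-1 alone with vehicle.

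**Figure D5:**
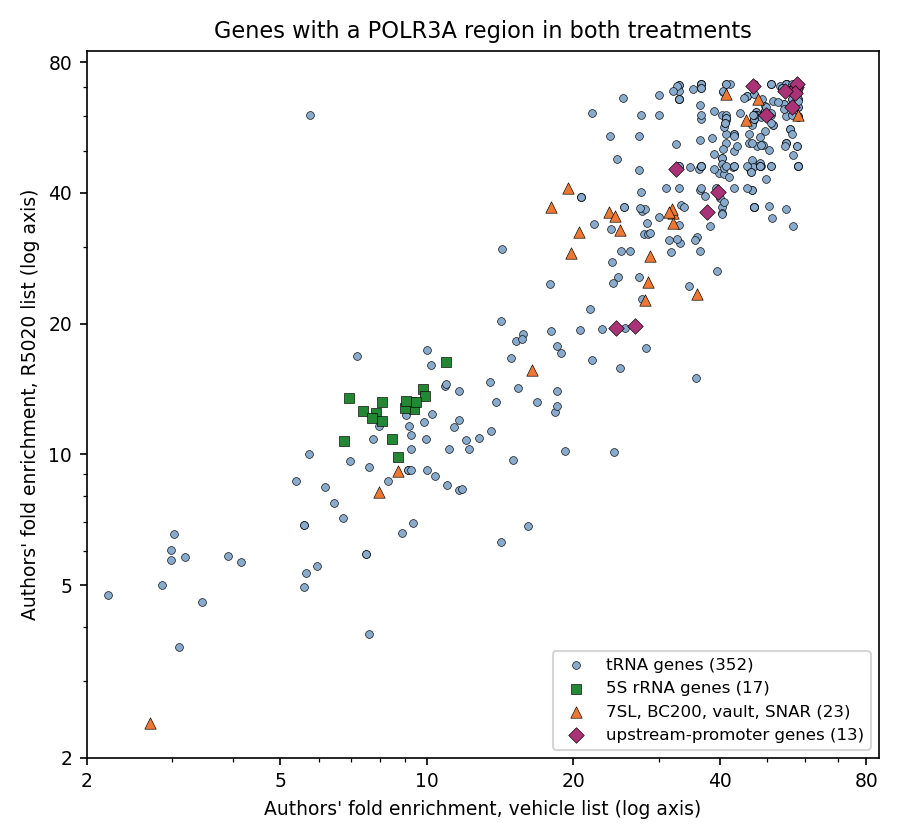
Authors' fold enrichment of the POLR3A region at each RNA polymerase III gene occupied in both treatments, vehicle on the horizontal and R5020 on the vertical log axis, by class. The 17 5S genes form a tight group between 6.75 and 16.3, and the upstream-promoter genes lie at the upper right, with RPPH1 and RNU6-7 the lowest of them.

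RN7SL1 and RN7SL2, which encode the RNA of the signal recognition particle, had folds of 45.2 and 19.5 with vehicle and 58.9 and 41.1 with R5020. BCYRN1, the neuronal BC200 RNA gene, was occupied in this breast line with 35.9 and 23.4, with Brf1 in both treatments. The vault RNA genes VTRNA1-1, VTRNA1-2 and VTRNA1-3 had 48.0, 41.2 and 58.0 with vehicle and 65.9, 67.5 and 60.3 with R5020. VTRNA2-1, the vault RNA gene that lies apart from them, had no region in either treatment. The SNAR genes make small RNAs that bind nuclear factor 90. All 14 SNAR-A genes were occupied in both treatments, with folds from 7.97 to 32.1 and from 8.17 to 37.2, and so were both SNAR-B genes. Of 5 SNAR-C genes only SNAR-C3 was, at 2.70 and 2.41. Of the 7 SNAR-D to SNAR-I genes, SNAR-G2 (fold 13.2) and SNAR-H (5.74) were occupied with vehicle and none with R5020. SNAR-G2, at chr19:49031588-49031899, had the highest fold of any vehicle region without an R5020 partner, and Brf1 was present there in both treatments. The SNAR-A copies are near-identical, so their separate values are uncertain.

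Pseudogenes of these families were occupied less often than the genes themselves, to an extent that differed by family, and most of their regions were shared. Vehicle regions lay at 8 of 87 tRNA pseudogenes (9.20%), 21 of 504 5S pseudogenes (4.17%), 7 of 1269 U6 pseudogenes (0.552%), 2 of 681 7SL pseudogenes (0.294%), 4 of 292 7SK pseudogenes (1.37%) and 0 of 75 Y RNA pseudogenes. With R5020 the counts were 7, 20, 8, 2, 6 and 0. Of the regions, 37 of 41 with vehicle and 37 of 43 with R5020 were shared. The highest folds were those of TRS-ACT1-1 (49.6 and 50.3), TRP-AGG6-1 (41.9 and 43.5) and RN7SL5P (37.2 and 47.9). RN7SL4P had 18.4 and 32.9. TRS-ACT1-1 is annotated as a serine tRNA pseudogene and its vehicle fold was close to the 49.8 that was the median of upstream-promoter genes. Brf1 overlapped 7 of the 41 pseudogene regions with vehicle, -63.2 percentage points from tRNA genes (-72.7 to -48.2). These 41 regions mix families, and with vehicle Brf1 was at 0 of 13 regions of upstream-promoter genes. Their median vehicle fold was 7.53, against 36.6 for tRNA regions. Among the 90 tRNA genes of lowest vehicle fold, 33 had Brf1 with vehicle. The part of family and fold in the gap was not tested. Of the 5 highest R5020 regions without a vehicle partner, 3 lay at pseudogenes: RNU6-33P (8.17), RN7SKP176 (6.96) and RN7SKP230 (6.85). Of all 445 R5020 regions without a partner, 6 lay at pseudogenes, against 43 of the 1019 regions of the list.

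The snRNA genes that RNA polymerase II transcribes, whose promoters resemble those of U6 genes, were read for comparison. POLR3A was found at 2 of 33 in each treatment (6.06%, 1.68 to 19.6). Over all 59094 genes of the table the shares were 1.24% with vehicle and 1.31% with R5020, both below that interval. These were RNU5B-1, with folds of 11.6 and 10.8, and the variant U1 gene RNVU1-7, with 5.23 and 3.92.

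Farther than 200 bp from the listed RNA polymerase III genes, the strongest regions were shared by both treatments. Of the 30 highest of each list outside these genes and their pseudogenes, 30 of 30 were shared in both directions, and Brf1 overlapped 25 with vehicle and 26 with R5020. Over the whole lists Brf1 overlapped 50.6% of vehicle and 64.1% of R5020 regions. The 30 were picked by fold, the lowest being 14.7 with vehicle and 12.7 with R5020. Of all regions with a fold from 10 to 20, 86 of 87 with vehicle and 106 of 106 with R5020 were shared. Sharing at such folds was therefore not particular to the 30. The highest was chrX:47802382-47803086, 61 bp from WASF4P, with folds of 58.0 and 71.4. The second, chr16:22298047-22298907, lies in POLR3E, which encodes a subunit of RNA polymerase III itself, and had 56.9 and 65.9. The leucine gene TRL-AAG2-4 lies just ahead of POLR3E and has a separate region, chr16:22296815-22297779, with 58.0 and 71.4. In each treatment 2 POLR3A regions overlapped POLR3E. POLR3E was the only 1 of 31 genes of the RNA polymerase III machinery with a POLR3A region in either treatment, against 0.681% of all protein-coding genes with vehicle. A region within HSD17B11, a steroid dehydrogenase gene, at chr4:87363530-87364033 had 49.3 and 56.1 and lay with Brf1 but without H3K27Ac. The region chr1:145160831-145161497 (48.3 and 58.5) overlaps TRNAV-CAC, a valine tRNA entry without a number, which the list of 422 genes leaves out. Another, chr1:145156945-145157390 (28.9 and 42.1), also overlaps a TRNAV-CAC entry. The region chr14:49853570-49854006 (15.6 and 17.7) overlaps RN7SL3, which is not on the list either. With vehicle, chr1:161612253-161613130 lies 224 bp from TRL-CAA6-1. Some of the 30 thus lie at or beside tRNA or 7SL entries. The region chr1:149708272-149709049 (27.6 and 60.4) overlaps LOC100189498.

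Regions without a partner had low folds within their list in both treatments, and those of R5020 were crowded into a few places. The 115 vehicle regions had a median fold of 4.06 (highest 13.2), in a list with a median of 10.9. The 445 R5020 regions had a median of 2.14 (highest 8.96), in a list with a median of 5.08. Besides the 3 pseudogenes, the highest R5020 regions were chr6:61322938-61323136 (8.96), 219534 bp from the nearest gene, KHDRBS2, and chr8:138803392-138803534 in the collagen gene COL22A1 (6.50). After SNAR-G2 and TRI-AAT3-1, the highest vehicle regions were chr7:149685541-149685747 (7.41), chr7:46524449-46524673 (6.90) and chr18:49460785-49461209 at the end of DYM (6.85). Windows of 1 Mb with at least 10 R5020 regions without a partner numbered 15, and they held 281 of the 445 (63.1%), with a median fold of 1.90. The windows were picked by their number of such regions, so a large part inside them and a higher shared percentage outside them follow from the choice. The window of chromosome 4 from 49 Mb held 42, that of chromosome 1 from 143 Mb 32, that of chromosome 21 from 8 Mb 32 and that of chromosome 8 from 85 Mb 29. In the same windows Brf1 with R5020 overlapped 176 of the 281 (62.6%), Maf1 67 and PR 5, where over the whole R5020 list Brf1 overlapped 64.1%, Maf1 24.5% and PR 18.4%. The same 15 windows held 29 of the 115 vehicle regions without a partner. Outside them 164 R5020 and 86 vehicle regions remained without a partner, with median folds of 2.98 and 4.26, and 76.2% of R5020 regions were shared. Vehicle regions played no part in picking the windows, so the R5020 and vehicle counts are not to be compared. Of the 164, 6 were at tRNA genes and 0 at 5S, upstream-promoter, 7SL, BC200, vault or SNAR genes.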

How the data were processed

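POLR3A ChIP-seq peak lists of T47D cells, 1 per treatment from 3 libraries each, were analysed with the peak lists of the 7 other antibodies. Per the submitters' processing notes, cutadapt, Bowtie2 and MACS2 were used with the build hg38, with no versions given. How the libraries were combined and which control was used is not given in the sources used here, nor whether they came from separate cultures. The deposited values were a fold enrichment, a ratio over the peak caller's background, and the -log10 of a q-value, both the authors' own. The deposited lists hold no read counts, so depth is unknown, and a longer list can also come from depth or from the control.

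Regions on chromosomes 1 to 22 and X were overlapped by at least 1 bp. Genes came from RefSeq (GRCh38.p14, primary coordinates as in hg38) and were called occupied when a region lay no more than 200 bp away. The numbered tRNA symbols past position 100 kb of a chromosome gave 422 genes. Protein-coding gene ends were taken to 1 kb. Named were all listed non-tRNA, non-5S genes, tRNA genes with a region in 1 treatment, the 5 highest regions of each kind and the machinery genes, and tRNA genes with a readable sequence or a group extreme were added after their values were seen. The members, lists and alternatives were chosen with earlier results of these data known. Shares have 95% Wilson intervals and differences Newcombe intervals, for counting error only. The overlap code was tested on 700 simulated regions with 200 planted overlaps and recovered 200. Python 3.11.15, numpy 2.4.6, pandas 2.3.3, scipy 1.17.1 and matplotlib 3.10.9 were used. The -log10 q filter, fold filter, equal list lengths, overlap rule, gene distance and chromosomes were varied, and windows crowded with unshared R5020 regions were left out as an alternative chosen after seeing the data.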

Additional observations from a re-analysis of the deposited data

Results flagged for a closer look

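POLR3A regions also lay on sequences that the comparisons above do not use. The vehicle list had 39 regions outside chromosomes 1 to 22 and X, all on scaffolds, with a median fold of 3.70 (highest 7.75). The R5020 list had 227, of which 191 were on scaffolds, with a median fold of 2.16 (highest 8.71), and the rest on chromosome Y and the mitochondrial genome. They were looked at because they hold signal outside the main measurement, and there is no control list to set them against.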

How the results depend on the processing

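No paired analysis was possible because each treatment has 1 peak list without replicate numbers. The shares of tRNA genes with a POLR3A region stayed within their main intervals under every alternative run, from 81.8% to 86.3% with vehicle and from 82.9% to 85.8% with R5020. The log2 ratio of region numbers, R5020 against vehicle, was 0.57 as deposited. It was 0.35 with a -log10 q of at least 5, 0.014 with a fold of at least 5, 0.78 with all sequence names and 0.17 without the crowded windows, and 0.0 by construction with equal numbers of top regions. The share of vehicle regions with an R5020 partner, 83.3%, moved to 90.6% with a fold of at least 5, 85.9% with a gap of up to 1 kb, 79.9% with overlap of at least 50% of both regions, 76.0% with equal numbers and 85.9% without the crowded windows. The share of R5020 regions with a vehicle partner, 56.3%, moved to 65.2% with the q filter, 89.6% with the fold filter, 47.3% with all sequence names, 59.6% with the gap, 75.7% with equal numbers and 76.2% without the crowded windows. The difference in the share at RNA polymerase III genes, -17.1 points, was -0.87 with equal numbers and -6.74 without the crowded windows, and reversed to 0.13 with the fold filter, which removes more low-fold regions from the R5020 list. The other 18 of 37 alternatives left the value within its main interval. The crowded windows were picked by their unshared R5020 regions, so part of each shift without them follows from that choice. Depth is unknown, so how many low-fold R5020 regions depth would account for was not tested.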
